A study of Mus musculus with 59 samples.

Results

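Expression of 8 testis genes was followed through all 59 RNA-seq libraries of a study of Polycomb repressive complex 1 (PRC1) in mouse embryonic stem cells (ESCs) and in embryoid bodies (EBs), the aggregates that ESCs form when they start to differentiate. The genes were *Taf7l*, *Stk31*, *Slc25a31*, *Tex101*, *Tdrkh*, *Dazl*, *Tuba3a* and *Tuba3b*, 8 of the 24391 genes listed for each library. They were listed by name as testis genes held silent by a variant PRC1 that contains PCGF6, with no threshold on a measured value. All 8 had values and were tested in each of the 6 ESC lines.

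Every line carries a Cre recombinase that 4-hydroxytamoxifen (4-OHT) activates, and control libraries were made without 4-OHT and mutant libraries with it. The Pcgf1 line (ERT2-Cre;Pcgf1f/f) gave 4 control ESC, 5 mutant ESC, 5 control EB and 5 mutant EB libraries. The other 5 lines gave 2 libraries for each of these 4 groups. They were the Ring1A/B line (ERT2-Cre;Ring1a-/-;Ring1bf/f), the Pcgf2/4 line (ERT2-Cre;Pcgf2f/f;Pcgf4f/f), the Pcgf3/5 line (ERT2-Cre;Pcgf3f/f;Pcgf5f/f), the Pcgf6 line (ERT2-Cre;Pcgf6f/f) and a Ring1 point mutant line. In the point mutant line control libraries have the genotype ERT2-Cre;Ring1apm/pm;Ring1b and 4-OHT leaves Ring1bpm/pm, so that both RING1 proteins are catalytically dead. Controls of the Ring1A/B line already lack Ring1a, and controls of the point mutant line already carry its mutated form. ESCs were grown on fibroblast feeders with LIF and 3 kinase inhibitors, and EBs were kept for 2 days without them. By the study's methods, PCGF1 to PCGF5 were depleted before EBs were formed, and PCGF6 and RING1A/B while they were formed. Each line stands for its genotype alone, and the sources used here do not say that replicates were separate cultures, so the p-values measure the spread between libraries.

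PRC1 places ubiquitin on histone H2A through RING1A or RING1B, and the PCGF subunit decides which accessory proteins the complex carries. The PCGF6 complex, PRC1.6, is brought to promoters by 2 kinds of DNA-binding subunit, the MGA and MAX pair, which reads E-boxes, and E2F6 with its partner DP1. It is known for keeping germ cell genes silent in ESCs and in somatic tissue, while the PCGF1 complex acts at CpG islands of developmental genes. Of the 8 genes, *Taf7l* encodes a germ cell paralogue of a TFIID subunit, *Stk31* a Tudor domain protein of the kinase family, and *Tdrkh* a Tudor and KH domain factor of the piRNA pathway. *Dazl* encodes an RNA-binding protein that drives translation in germ cells. *Slc25a31* encodes the ADP/ATP carrier of sperm mitochondria, *Tex101* a cell surface protein of testicular germ cells, and *Tuba3a* and *Tuba3b* testis alpha-tubulins.

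On mm9, the build that the study used, *Taf7l* lies at chrX:130994657-131011029 on the minus strand, *Stk31* at chr6:49345603-49419500 on the plus strand and *Slc25a31* at chr3:40512777-40529515 on the plus strand. *Tex101* lies at chr7:25453031-25457069 on the minus strand, *Tdrkh* at chr3:94217218-94236555 on the plus strand and *Dazl* at chr17:50418719-50432924 on the minus strand. *Tuba3a*, at chr6:125228292-125236060 on the minus strand, and *Tuba3b*, at chr6:145564277-145569999 on the plus strand, share a chromosome. All 8 are annotated as protein-coding.

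Promoter windows from RefSeq on GRCm38.p6, 250 bases before to 50 bases after the start site in the direction of the gene, were found for all 8 genes, with 2 windows for *Stk31*. They were searched on both strands for the E-box CACGTG, which is its own reverse complement, and for an E2F core, GCGGGA or TCCCGC. No match of one motif overlapped a match of the other in these windows. Of 32851 promoter windows, 7.15% held the E-box, 20% the E2F core and 25.1% either. *Taf7l*, *Stk31* and *Slc25a31* held the E-box, *Slc25a31*, *Tuba3a* and *Tuba3b* held the E2F core, and *Tex101*, *Tdrkh* and *Dazl* held neither in these letters. The windows of the 5 genes with a motif are printed 5′ to 3′, with the motif in capitals, because the levels of these genes are set side by side below, and that of *Tex101* because it moved furthest in the point mutant line.
Taf7l, chrX:134476441-134476740, minus strand, E-box 49 bases before the start site: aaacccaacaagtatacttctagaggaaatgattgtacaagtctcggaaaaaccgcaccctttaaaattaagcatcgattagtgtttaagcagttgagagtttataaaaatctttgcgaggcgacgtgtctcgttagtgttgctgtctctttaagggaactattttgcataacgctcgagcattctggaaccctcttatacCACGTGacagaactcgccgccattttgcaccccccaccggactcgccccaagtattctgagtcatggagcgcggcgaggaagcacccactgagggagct
Stk31, chr6:49395289-49395588, plus strand, E-box 55 bases before the start site: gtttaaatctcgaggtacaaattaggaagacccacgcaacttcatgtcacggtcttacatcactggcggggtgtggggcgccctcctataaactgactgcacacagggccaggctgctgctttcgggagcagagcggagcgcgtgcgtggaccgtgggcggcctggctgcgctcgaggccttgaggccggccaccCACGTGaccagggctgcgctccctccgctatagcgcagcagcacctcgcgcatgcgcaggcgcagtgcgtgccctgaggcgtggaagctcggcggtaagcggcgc
Slc25a31, chr3:40708621-40708920, plus strand, E-box 93 bases before and E2F core 20 bases after the start site: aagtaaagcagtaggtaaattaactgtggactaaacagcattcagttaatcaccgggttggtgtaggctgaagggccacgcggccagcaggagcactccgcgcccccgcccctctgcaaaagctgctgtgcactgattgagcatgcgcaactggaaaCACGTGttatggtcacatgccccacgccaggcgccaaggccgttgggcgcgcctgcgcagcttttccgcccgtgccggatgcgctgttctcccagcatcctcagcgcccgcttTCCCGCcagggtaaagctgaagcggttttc
Tuba3a, chr6:125286032-125286331, minus strand, E2F core 119 bases before the start site: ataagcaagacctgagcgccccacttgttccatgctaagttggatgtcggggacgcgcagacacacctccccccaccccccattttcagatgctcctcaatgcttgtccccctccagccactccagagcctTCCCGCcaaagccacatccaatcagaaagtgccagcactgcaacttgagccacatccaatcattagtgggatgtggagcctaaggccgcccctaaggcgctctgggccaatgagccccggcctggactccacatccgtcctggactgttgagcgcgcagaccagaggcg
Tuba3b, chr6:145615713-145616012, plus strand, E2F core 106 bases before the start site: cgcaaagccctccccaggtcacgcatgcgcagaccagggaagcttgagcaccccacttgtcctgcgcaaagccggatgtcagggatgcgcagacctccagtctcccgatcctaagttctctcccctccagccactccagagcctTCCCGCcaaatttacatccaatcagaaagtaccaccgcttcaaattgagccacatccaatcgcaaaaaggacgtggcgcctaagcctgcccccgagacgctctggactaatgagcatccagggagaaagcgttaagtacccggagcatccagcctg
Tex101, chr7:24672001-24672300, minus strand, neither motif: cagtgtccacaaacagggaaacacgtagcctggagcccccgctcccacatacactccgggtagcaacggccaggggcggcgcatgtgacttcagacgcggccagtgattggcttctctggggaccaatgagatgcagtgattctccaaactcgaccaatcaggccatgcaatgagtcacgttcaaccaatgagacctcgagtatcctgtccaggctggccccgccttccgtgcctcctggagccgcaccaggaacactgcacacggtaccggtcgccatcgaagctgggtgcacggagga
The 8 genes share CpG-rich promoters, with 12 CpGs in the window of *Tuba3a* and 29 in the first window of *Stk31* as the ends of their range, where the median of all windows is 7. The windows of *Tuba3a* and *Tuba3b* match at 158 of 287 positions (55.1%) when one is shifted by 13 bases, and their transcripts share 32.4% of the 50-base stretches of *Tuba3a*. Reads from a shared stretch may have been given to either gene, so the split between the pair is less certain than their sum.

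Names and labels of the libraries disagreed in 4 lines. The values are TPM, transcript levels that the authors scaled for transcript length and library total, so the read depth is unknown and no counting error can be given. In the Pcgf1 and point mutant lines each library's name and label gave the same condition, and in the other lines they differed for 21 of 32 libraries. The summed TPM of 5 EB markers (*Fgf5*, *Otx2* and *Pou3f1* among them) in these 4 lines ran from 45.4 to 109 in the 16 libraries named ESC and from 379 to 1051 in the 16 named EB. By label it ran from 45.4 to 1051 in ESCs and from 48.3 to 1034 in EBs, so that labelled stages overlapped and named stages did not. All tests were made on the labels. The values by name are given as a description, and the main comparisons are those of the Pcgf1 and point mutant lines.

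**Figure D1:**
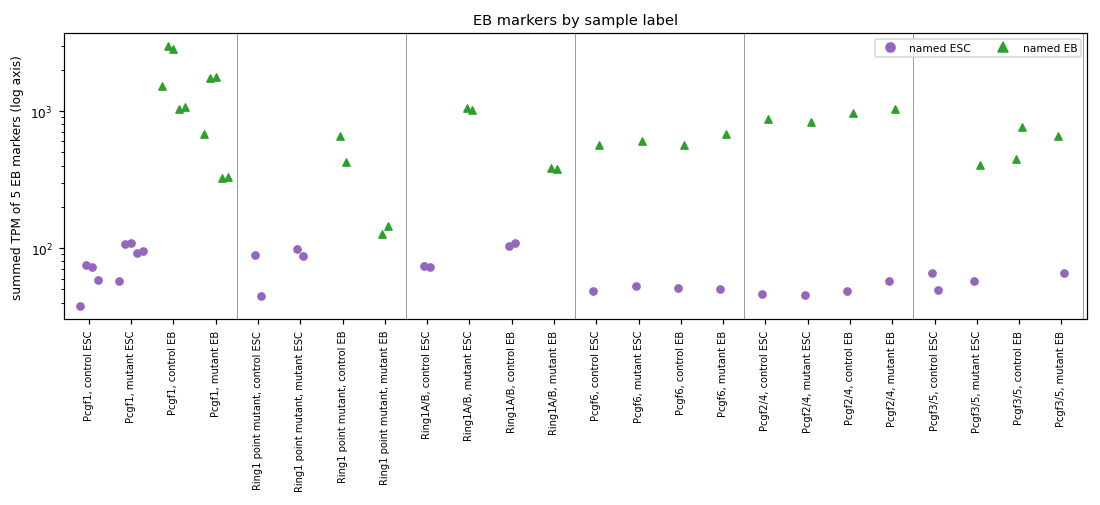
Summed TPM of 5 EB markers (log axis) in each library, placed by the line and condition of its label, with colour and shape by the stage in its name. In the Pcgf1 and Ring1 point mutant lines all triangles (named EB) are at EB labels, and in the other 4 lines circles from 45.4 to 109 and triangles from 379 to 1051 stand at labels of either stage.

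The targeted genes were read as a check of the labels. *Pcgf1* itself was at 7.30 to 16.6 TPM in the 9 control libraries of its line and at 0.627 to 2.77 in the 10 mutant libraries. *Pcgf6* was at 67.1 to 105 TPM in the 4 libraries of the Pcgf6 line named control and at 34.7 to 46.3 in the 4 named mutant, and by label these are the ESC and the EB libraries. *Ring1*, the gene of RING1A, was at 0.973 to 3.41 TPM in all 8 libraries of the Ring1A/B line, which lacks it throughout. *Rnf2*, the gene of RING1B, was not lower in libraries of that line named mutant: it was at 77.2 to 78.2 TPM in those named control ESC and 83.2 to 95.1 in those named mutant ESC, and at 62.9 to 63.2 and 78.1 to 80.5 in those named control and mutant EB. By label these 4 pairs are control ESC, control EB, mutant ESC and mutant EB, respectively. In the Pcgf2/4 line *Bmi1*, the gene of PCGF4, was at 4.12 to 5.47 TPM in libraries named control and 7.01 to 10.03 in those named mutant, and *Pcgf2* at 39.6 to 49.6 and 43.7 to 55.04. In the Pcgf3/5 line *Pcgf3* was at 29.2 to 33.5 TPM in libraries named control and 27.6 to 35.6 in those named mutant, and *Pcgf5* at 21.33 to 24.7 and 15.6 to 21.3. Transcript levels thus showed a loss of the target in libraries named mutant for *Pcgf1* and *Pcgf6*, and none of that size for *Rnf2*, *Bmi1*, *Pcgf2*, *Pcgf3* or *Pcgf5*. A deleted exon need not lower the level of the whole transcript, and a point mutation cannot be seen in it.

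After loss of PCGF1 none of the testis genes passed the main test in ESCs or in EBs. A fit with the replicate number as a block, given below, called *Tuba3a* and *Tuba3b* lower in mutant ESCs. Differences were tested with limma on log2(TPM + 0.1), which understates the change of genes near 0, with Benjamini-Hochberg adjustment over all genes and an adjusted p below 0.05. By this test 0.641% of 20594 genes differed between mutant and control ESCs of the Pcgf1 line and 1.95% between mutant and control EBs. Of the 8 genes 0 passed in ESCs, where 2 had an unadjusted p below 0.05, and 0 passed in EBs, where none had. Of all 20594 genes 1777 in ESCs and 2470 in EBs had such a p. The median difference of the 8 was -0.30 in ESCs and -0.13 in EBs on the log2 scale, where the median of all genes was -0.02 and -0.03.

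*Taf7l* was at 1.39, 0.878, 1.76 and 1.38 TPM in the 4 control ESC libraries and at 1.38, 1.67, 1.13, 0.859 and 1.02 in the 5 mutant ESC libraries. Its control EB libraries gave 4.17, 1.80, 4.39, 1.11 and 1.81 TPM and its mutant EB libraries 3.09, 1.61, 3.69, 0.913 and 1.05. Control and mutant values overlapped in both stages, and the difference was -0.14 in ESCs, with a 95% interval of -1.09 to 0.81 on the log2 scale. *Slc25a31* ran from 0.269 to 0.848 TPM in control ESC libraries and from 0.427 to 0.877 in mutant ones, and in EBs from 0.956 to 2.60 in controls and from 0.698 to 1.81 in mutants. *Tdrkh* ran from 0.961 to 1.96 TPM (control ESCs), 1.22 to 1.63 (mutant ESCs), 1.53 to 2.94 (control EBs) and 1.17 to 1.98 (mutant EBs). Groups with and without PCGF1 overlapped for both genes. *Tex101* was listed at 0 in 1 mutant ESC, 2 control EB and 1 mutant EB library, and reached at most 1.88 TPM in the line.

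*Stk31* was at 9.39, 7.73, 7.01 and 7.19 TPM in control ESCs and at 7.21, 3.00, 3.39, 5.51 and 5.39 in mutant ESCs, of which only the highest reached into the control range. Its difference was -0.73 (SE 0.32) on the log2 scale with an adjusted p of 0.507 in limma. *Dazl*, between 9.39 and 18.3 TPM in control and between 5.77 and 14.8 in mutant ESCs, overlapped between the groups. *Tuba3a* was at 39.4, 51.2, 56.4 and 59 TPM in control ESCs and at 26.7, 28.5, 33.1, 45.9 and 43.2 in mutant ESCs, and *Tuba3b* at 13.7, 18.4, 22.1 and 19.2 against 9.47, 8.56, 12.6, 14.8 and 12.6. Both tubulin genes overlapped in part and neither passed (log2 differences of -0.55 and -0.66, limma adjusted p = 0.600 and 0.560). When the replicate number, which these libraries share, was added as a block, both were lower in mutant ESCs: *Tuba3a* by -0.64 (adjusted p = 0.0145, limma) and *Tuba3b* by -0.74 (adjusted p = 0.0298), and *Stk31* did not pass at -0.77 (adjusted p = 0.0654). Under this block 5.31% of all genes passed. Identifiers in the headers of the deposited values put this line in 3 series, each of which holds all 4 groups. Identifiers that start with S093 and S094 were joined into 1 series. The difference between mutant and control ESCs of *Tuba3a* was negative in each series (-0.81 to -0.40). Feeder fibroblast markers, 12 genes, summed to 250 to 338 TPM in control ESCs of the line and 204 to 276 in mutant ESCs, and their part in these levels was not tested.

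In the point mutant line, loss of RING1 catalytic activity went with a rise of *Taf7l*, *Stk31*, *Slc25a31*, *Tex101* and *Tdrkh* in both stages. Of 20279 genes 2.54% differed between mutant and control ESCs (2.34% higher) and 4.53% between mutant and control EBs (3.76% higher). Of the 8 genes, these 5 were higher in ESCs and the same 5 in EBs, and none was lower. The median difference of the 8 was 1.65 in ESCs and in EBs on the log2 scale, where the median of all genes was 0.12 and 0.10.

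*Tex101* was at 5.03 and 4.6 TPM in control ESCs and at 44.0 and 38.0 in mutant ESCs, an 8.51-fold ratio of means (log2 difference 3.06, SE 0.18, limma adjusted p = 0.00518). Its EB libraries gave 4.90 and 5.47 TPM in controls and 51.5 and 54.2 in mutants, a 10.2-fold ratio (3.33, adjusted p = 0.00282). *Taf7l* was at 4.62 and 4.29 TPM in control ESCs and at 29.6 and 35 in mutant ESCs, a 7.26-fold ratio (2.83, SE 0.20, adjusted p = 0.00714). In EBs it was at 5.65 and 6.34 TPM against 31.7 and 39.5 (2.54, adjusted p = 0.00758). No mutant library of these genes came near a control library. *Tdrkh*, the piRNA factor, was at 6.31 and 8.03 TPM in control ESCs, 30.5 and 42.8 in mutant ESCs, 9.51 and 13.4 in control EBs and 47.9 and 45.5 in mutant EBs. The differences were 2.33 (SE 0.25, limma adjusted p = 0.0115) in ESCs and 2.04 (adjusted p = 0.0121) in EBs.

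*Slc25a31* was at 9.03 and 6.53 TPM in control ESCs, 34.8 and 27.3 in mutant ESCs, 17.1 and 7.40 in control EBs and 49.8 and 35.9 in mutant EBs. Control EBs of this gene spread more than other groups, and the differences of 1.99 in ESCs (limma adjusted p = 0.0480) and 1.90 in EBs (adjusted p = 0.0424) were closest to the threshold. *Stk31* was the least spread, at 16.2 and 16.7 TPM in control ESCs, 42.3 and 39.5 in mutant ESCs, 16.1 and 16.5 in control EBs and 43.3 and 43.6 in mutant EBs. Its rise was the smallest of the 5, at 1.31 (SE 0.14, limma adjusted p = 0.0111) in ESCs and 1.41 (adjusted p = 0.00990) in EBs.

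**Figure D2:**
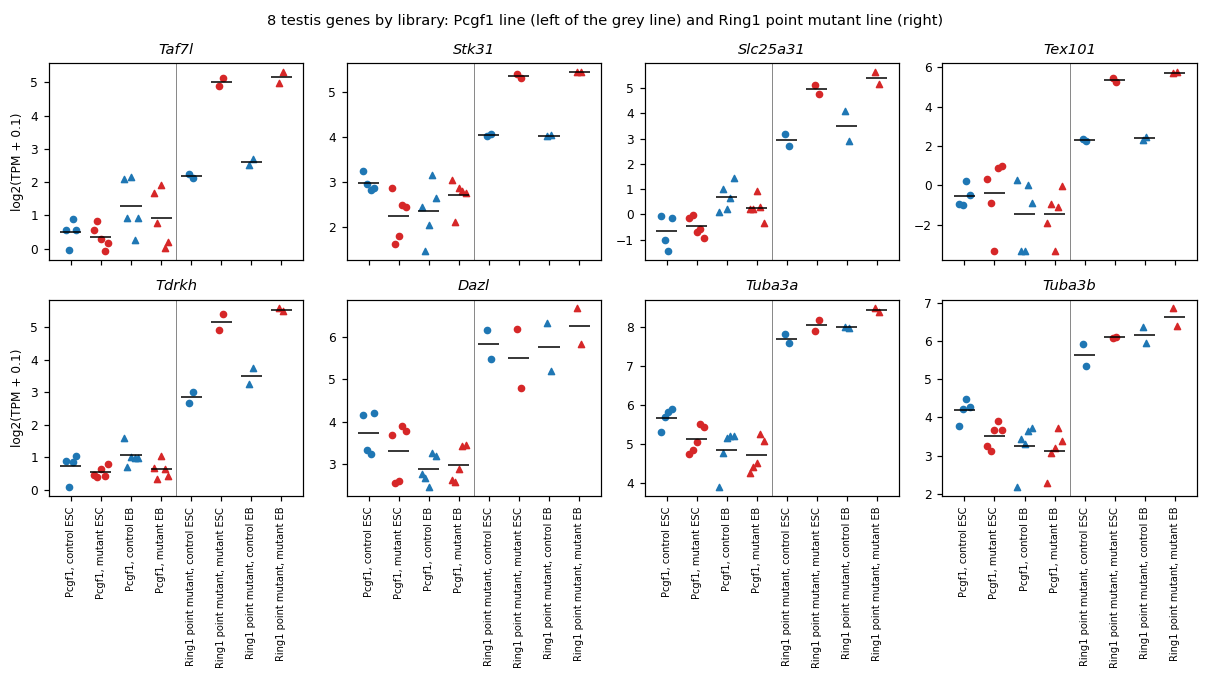
log2(TPM + 0.1) of each testis gene in each library of the Pcgf1 line (left of the grey line) and of the Ring1 point mutant line (right), with control in blue, mutant in red, ESCs as circles, EBs as triangles and a bar at each group mean. In the point mutant line the red points of *Taf7l*, *Stk31*, *Slc25a31*, *Tex101* and *Tdrkh* stand above the blue ones in both stages, and in the Pcgf1 line red and blue points of all 8 genes overlap.

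The RNA-binding factor *Dazl* and the tubulin genes did not pass the test in the point mutant line. *Dazl* was at 72.3 and 44.5 TPM in control ESCs and 73.5 and 27.6 in mutant ESCs, and at 80.2 and 36.9 in control EBs and 103 and 57.0 in mutant EBs. Replicate 1 was the higher one in every group, and control and mutant overlapped. The 95% intervals of the difference ran from -1.63 to 0.97 in ESCs and from -0.81 to 1.79 in EBs. *Tuba3a* was at 225 and 192 TPM in control ESCs, 240.2 and 292 in mutant ESCs, 258 and 253 in control EBs and 356 and 333 in mutant EBs. *Tuba3b* was at 60.4 and 40.4 TPM in control ESCs, 67.5 and 68.3 in mutant ESCs, 82.8 and 61.7 in control EBs and 115 and 83.0 in mutant EBs. Differences were 0.35 and 0.43 for *Tuba3a* in ESCs and EBs (limma adjusted p = 0.240 and 0.123). For *Tuba3b* they were 0.46 and 0.45 (limma adjusted p = 0.423 and 0.357). Neither gene passed, and the median of all genes was 0.12 and 0.10. The pair together went from 285 and 232 TPM in control ESCs to 308 and 359.8 in mutant ESCs.

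Calls in the point mutant line rest on 2 libraries a group. Leaving out any 1 of the 4 ESC libraries left 2 of the 5 past the threshold, *Tex101* and *Taf7l*, with a lone library then assumed to vary like the others. In EBs, leaving out control replicate 1 left 1 (*Tex101*), and leaving out control replicate 2, mutant replicate 1 or mutant replicate 2 left 3 (*Tex101*, *Taf7l* and *Stk31*). A fit of the 4 ESC libraries alone called 0, with adjusted p-values of 0.0780 for *Tex101* and *Taf7l* and 0.0897 for *Stk31*. All 5 differences stayed positive in these fits.

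Other markers also differed between control and mutant libraries of the point mutant line. The summed TPM of 12 feeder fibroblast markers was 49.1 to 50.02 in control ESCs and 84.2 to 99.99 in mutant ESCs, and 33.6 to 39.6 in control EBs and 83.4 to 86.6 in mutant EBs. Over all genes 3.76% were higher in mutant EBs and 2.34% in mutant ESCs. In EBs 4 of the 12 markers were higher (*Col1a1*, *Col1a2*, *Thy1* and *Twist2*, chosen for naming after their values were seen) and in ESCs 0 of 12. *Dcn* and *Lum* were at 0.656 TPM or below in all 8 libraries, and at 0.817 or below also in ESCs of the Pcgf1 line. EB markers summed to 426 to 660 TPM in control EBs and 126 to 146 in mutant EBs, and 7 pluripotency markers to 2816 to 2962 in control EBs and 3314 to 3489 in mutant EBs, where 3 of the 7 were higher (median 0.60). Markers of somatic testis cells summed to 5.60 to 9.10 TPM in control ESCs and 6.53 to 8.06 in mutant ESCs, and without overlap to 4.55 to 4.88 in control EBs and 5.67 to 6.11 in mutant EBs, where 1 of the 5 (*Sox9*) was higher. The part of these markers in the levels of the testis genes was not tested. In bulk RNA, more cells that express a gene and more RNA per cell cannot be told apart.

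The change in the point mutant line was set against that in the Pcgf1 line in a fit of all 59 libraries, which tests the difference between the 2 changes. In ESCs 1.13% of 22212 genes differed in this way and in EBs 2.14%. The fit takes a single spread per gene from all labelled groups. Those of the Pcgf2/4, Pcgf3/5 and Pcgf6 lines mix named stages or states, which can widen the SE of these differences. A gene that did not pass here is thus not read as changing alike in both lines. *Tdrkh* rose more in the point mutant line in both stages, by 2.5 (SE 0.49, limma adjusted p = 0.00423) in ESCs and 2.47 (adjusted p = 0.00317) in EBs. *Stk31* passed in ESCs (2.04, adjusted p = 0.00685) and not in EBs (1.04, adjusted p = 0.237), and *Taf7l* passed in EBs (2.90, adjusted p = 0.0355) and not in ESCs (2.97, adjusted p = 0.0505). *Tex101*, listed at 0 in some Pcgf1 libraries, differed by 2.93 in ESCs and 3.33 in EBs with an SE of 1.27 and 1.24, and did not pass. *Dazl*, *Tuba3a* and *Tuba3b* did not pass, at 0.10, 0.90 and 1.12 in ESCs. Under a replicate block within each line, *Taf7l* passed in ESCs too (2.86, adjusted p = 0.0107), which made 3 of the 8 where 3.35% of all genes passed. In EBs the block raised the count from 2 to 5 (*Taf7l*, *Stk31*, *Slc25a31*, *Tex101* and *Tdrkh*), where 6.01% of all genes passed. Without the block, the count in EBs was 1 without any 1 of the 4 EB libraries of the point mutant line, and 1 without control EB replicate 1 or 3 or mutant EB replicate 4 or 5 of the Pcgf1 line. In ESCs it was 3 without control replicate 2 or mutant replicate 2 of the Pcgf1 line, and 2 without any other library.

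**Figure D3:**
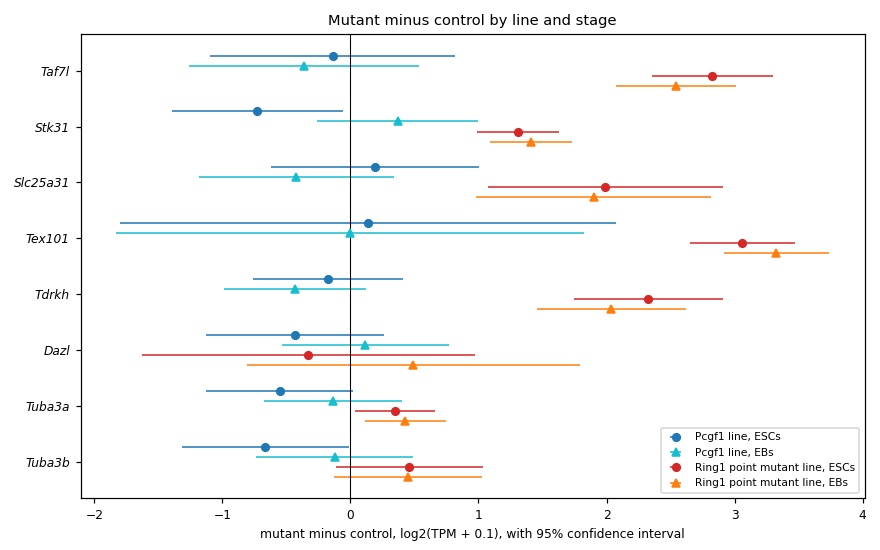
Difference between mutant and control (log2(TPM + 0.1), points) with its 95% confidence interval (lines) for each testis gene in ESCs and EBs of the Pcgf1 line and of the Ring1 point mutant line. Intervals of the point mutant line lie above 0 for *Taf7l*, *Stk31*, *Slc25a31*, *Tex101* and *Tdrkh*, and those of *Dazl* span 0 in both lines and stages.

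Control libraries of the 2 lines also differed in level, which was described and not tested. *Tuba3a* ranged from 39.4 to 59 TPM among control ESCs of the Pcgf1 line, and its libraries in the point mutant line gave 192 and 225. *Dazl* was at 9.39 to 18.3 TPM against 44.5 and 72.3, and *Slc25a31* at 0.269 to 0.848 against 6.53 and 9.03. All 8 genes were higher in every control library of the point mutant line than in every library of the Pcgf1 line, mutants included, with *Taf7l* the exception, whose control ESC libraries at 4.62 and 4.29 TPM met a Pcgf1 control EB library at 4.39. In control ESCs of both lines *Tuba3a* was the most abundant of the 8. In the point mutant line the mean of *Tuba3a* was followed by *Dazl* and *Tuba3b*, whose values overlapped, then *Stk31*, then *Slc25a31* and *Tdrkh*, which overlapped, and last *Tex101* and *Taf7l*, which overlapped too.

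Between control EBs and control ESCs of the Pcgf1 line 24.9% of all genes differed, and 3 of the 8 testis genes. A fit of these control libraries alone called 0. Between mutant EBs and mutant ESCs 18.3% of genes differed. In controls *Slc25a31* was higher in EBs (0.956, 1.92, 1.07, 1.47 and 2.60 TPM against 0.848, 0.402, 0.269 and 0.807 in ESCs), without overlap and by 1.34 (SE 0.39, limma adjusted p = 0.0151). *Tuba3a* was lower in EBs (14.7, 27.3, 35.3, 36.6 and 36.9 TPM against 39.4 to 59), by -0.83 (adjusted p = 0.0322), and *Tuba3b* by -0.93 (adjusted p = 0.0341). When replicate number entered as a block, 43.9% of all genes passed and 5 of the 8: *Slc25a31* (1.37, adjusted p = 0.0144), *Tuba3a* (-0.92, adjusted p = 6.8e-05), *Tuba3b* (-1.0, adjusted p = 0.00038), *Dazl* (-0.97, adjusted p = 0.000528) and *Stk31* (-0.67, adjusted p = 0.0274). In the fit without the block, which called 3, the count was 0 without control ESC replicate 2. It was 1 without control ESC replicate 3 or 4 or control EB replicate 1. Within each of the 3 library series the difference was positive for *Slc25a31* and negative for *Tuba3a*, *Tuba3b* and *Dazl*.

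Among mutants of the Pcgf1 line 0 of the 8 passed between stages, and under the block *Tuba3a* did (-0.41, limma adjusted p = 0.0178), where 36.8% of all genes passed. Feeder markers in this line summed to 204 to 338 TPM in ESCs and 17.2 to 72.4 in EBs, and their part in these differences was not tested. The dependence of the mutant effect on stage was tested as an interaction, which 0.00486% of genes passed and none of the 8, with 1 at an unadjusted p below 0.05. Of all 20594 genes 1195 had such a p. In the point mutant line 4.73% of genes differed between control EBs and ESCs, 0.133% between mutant EBs and ESCs and 0.00986% in the interaction, and 0 of the 8 genes passed each test, with 1, 1 and 0 at an unadjusted p below 0.05. Of all 20279 genes 4123, 1974 and 1076 had such a p. The median difference between stages of the 8 was 0.36 in controls and 0.37 in mutants.

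In the Ring1A/B line *Taf7l*, *Stk31*, *Slc25a31*, *Tex101* and *Tdrkh* fell into 2 levels, which followed the labelled stage or, by name, the state. Libraries labelled control EB and mutant EB, named mutant ESC and mutant EB, were high, and libraries labelled control ESC and mutant ESC, named control ESC and control EB, were low. The 5 EB markers summed to 72.2 to 73.7 TPM in libraries labelled control ESC and 1010 to 1051 in those labelled mutant ESC. In libraries labelled control EB they summed to 104 to 109 TPM and in those labelled mutant EB to 379 to 385. In this line these sums were thus higher in libraries named EB than in those named ESC. *Tex101* was at 1.11 and 0.788 TPM in libraries labelled control ESC, 1.72 and 1.32 in those labelled mutant ESC, 30.01 and 31.9 in those labelled control EB and 17.7 and 12.8 in those labelled mutant EB. *Taf7l* was at 1.58 and 0.945, 4.36 and 4.21, 22.2 and 23.8, and 25.7 and 25.4 TPM over these groups. *Dazl* was at 34.2 and 31.5, 13.4 and 12.5, 199 and 185, and 75.3 and 68.1 TPM, so that its named mutants lay above its named controls and, within each named state, named EBs below named ESCs. *Tuba3a* (63.2 and 65.4, 25.5 and 20.2, 136 and 141, 71.6 and 67.6 TPM) and *Tuba3b* (22.8 and 25.7, 12.2 and 8.25, 66.8 and 70.1, 31.1 and 30.2) had the same order of groups as *Dazl*.

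By label, 43.2% of 20344 genes differed between EBs and ESCs among control libraries of this line and 56.5% among mutant libraries. All 8 testis genes were higher in both, with medians of 2.99 and 2.5 on the log2 scale where all genes had 0.12 and 0.20. The largest difference was that of *Tex101* (4.91 and 3.24) and the smallest those of the tubulin genes *Tuba3a* (1.11 and 1.61) and *Tuba3b* (1.5 and 1.6). By name these contrasts are mutant against control within ESCs and within EBs. Feeder markers moved with them: 8 and 9 of the 12 were higher (medians 1.28 and 1.29), and their sums were 207 to 209 TPM in libraries labelled control ESC and 522 to 550.4 in those labelled control EB, and 39.6 to 42.2 in those labelled mutant ESC and 98.04 to 99.6 in those labelled mutant EB. Pluripotency markers were higher for 6 of 7 among libraries labelled mutant and for 1 of 7 among those labelled control. The part of these markers was not tested. Between libraries labelled mutant and control 48.8% of genes differed in ESCs and 33.3% in EBs, and by name these are EBs against ESCs. Here 7 of the 8 passed in ESCs, with *Taf7l*, *Slc25a31*, *Tex101* and *Tdrkh* higher and *Dazl*, *Tuba3a* and *Tuba3b* lower, and 5 in EBs, with *Stk31* higher and *Tex101*, *Dazl*, *Tuba3a* and *Tuba3b* lower. The count in ESCs was 4 without the library labelled mutant ESC replicate 1, and that in EBs was 3 without the one labelled control EB replicate 2 or mutant EB replicate 2.

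Libraries of the Pcgf6 line showed the same split. *Taf7l* was at 3.62, 3.49, 1.79 and 4.26 TPM in the 4 libraries labelled ESC, all named control, and at 56.9, 38.6, 51.1 and 46.9 in the 4 labelled EB, all named mutant. *Tdrkh* was at 5.84, 3.54, 5.84 and 2.75 TPM against 59.4, 36.6, 59.6 and 47.4, and *Slc25a31* at 3.91, 2.65, 3.67 and 2.70 against 38.9, 23.9, 37.2 and 30.4. *Stk31* was at 14.7, 7.83, 14.3 and 9.45 TPM against 51.0, 39.7, 48.0 and 49.3. No library named mutant reached down to a library named control for these genes. *Tuba3a* overlapped, at 38.6, 26.5, 40.6 and 23.0 TPM against 109, 29.3, 99.5 and 24.9, where both high libraries were named mutant ESC. *Dazl* (24.3, 11.1, 29.4 and 11.9 TPM against 136, 31.4, 129 and 35.5) and *Tex101* (1.76, 1.56, 3.28 and 1.05 against 40.95, 16.4, 40.2 and 9.30) were likewise highest in libraries named mutant ESC. The label-based test between EBs and ESCs, which 0.0406% of 19695 genes passed, called *Taf7l* (3.89), *Tdrkh* (3.51) and *Slc25a31* (3.29) higher, with limma adjusted p-values of 0.0318, 0.0386 and 0.0341. Without the block, these 3 calls did not hold when any 1 of the 8 libraries was left out. The replicate block raised the count to 7, all but *Tuba3a*, where 1.64% of all genes passed. In this line the replicate number is also the stage in the name. EB markers summed to 48.7 to 52.8 TPM in libraries labelled replicate 1, all named ESC. In those labelled replicate 2, all named EB, they summed to 564 to 675 TPM. The block thus also takes out the named stage. Without it each labelled group mixes both named stages, and their difference counts as spread. Between libraries labelled mutant and control 0% of genes and 0 of the 8 passed, at unadjusted p below 0.05 also 0 of the 8, and this contrast compares the replicate numbers in the names. Of all 19695 genes 175 had an unadjusted p below 0.05 in it. Feeder markers split like the testis genes, with sums of 11.3 to 63.5 TPM in the 4 libraries labelled ESC and 89.7 to 186 in the 4 labelled EB (median difference 2.14, 0 of 12 called), and their part was not tested.

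**Figure D4:**
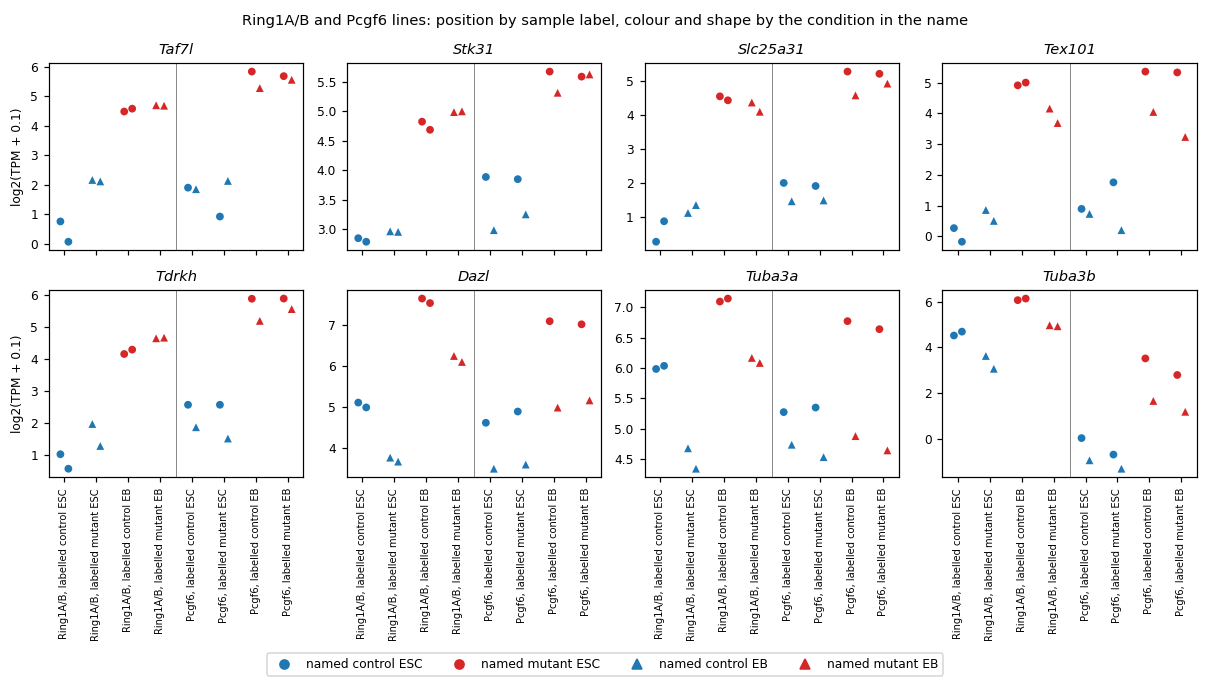
log2(TPM + 0.1) of each testis gene in the 8 libraries of the Ring1A/B line (left of the grey line) and the 8 of the Pcgf6 line (right), placed by labelled condition, with colour by the state and shape by the stage in the name. Libraries named mutant (red) stand above those named control (blue) in both lines for every gene but *Tuba3a*, whose red and blue points overlap in the Pcgf6 line.

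Set against the Pcgf1 line by label, the change between mutant and control differed in the Ring1A/B line for 1.78% of genes in ESCs and 0.513% in EBs, and in the Pcgf6 line for 0.009% and 0.063%. None of the 8 testis genes passed any of these 4 tests, and 3, 1, 0 and 0 of them had an unadjusted p below 0.05. Of all 22212 genes 3352, 2077, 794 and 1114 had such a p. With the replicate block *Dazl* passed in EBs of the Ring1A/B line, lower by -1.54 (limma adjusted p = 0.00359), where 3.05% of all genes passed. By name, labelled mutant against control is EBs against ESCs in the Ring1A/B line, and compares replicate numbers within a state in the Pcgf6 line. If the names hold, these tests thus cannot set loss of RING1A/B or PCGF6 against loss of PCGF1, whatever their outcome. No conclusion on these losses is drawn from them. The named values stand side by side without a test: *Taf7l* was at 22.2 to 25.7 TPM in named mutants of the Ring1A/B line, 38.6 to 56.9 in those of the Pcgf6 line and 0.859 to 3.69 in mutants of the Pcgf1 line.

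In the Pcgf2/4 and Pcgf3/5 lines, whose libraries named mutant showed no clear loss of the targeted transcripts, *Taf7l*, *Slc25a31*, *Tex101* and *Tdrkh* stayed below 9 TPM in all libraries. *Taf7l* was at 2.07 to 5.25 TPM in the 4 libraries of the Pcgf2/4 line named control and 2.48 to 8.99 in the 4 named mutant, and in the Pcgf3/5 line at 1.33 to 5.90 and 1.5 to 6.02. *Stk31* was at 8.11 to 12.5 TPM in all 8 libraries of the Pcgf2/4 line and 9.46 to 12.4 in all 8 of the Pcgf3/5 line. *Tex101* stayed at 2.57 TPM or below in both lines, and in the Pcgf3/5 line it was at 0.553 to 1.22 TPM in libraries named control and, without overlap, at 1.6 to 2.57 in those named mutant. Between labelled EBs and ESCs 0% of genes passed in the Pcgf2/4 line and 0.00501% in the Pcgf3/5 line, and between labelled mutants and controls 0% in both, with 0 of the 8 called in each by limma and 0 at unadjusted p below 0.05. Over all genes 385 and 747 had such a p between labelled stages, and 194 and 228 between labelled states. By name, labelled EBs against ESCs of the Pcgf2/4 line is mutant against control, with both stages in each group. Its labelled mutants against controls compares replicate numbers. Labelled groups of the Pcgf3/5 line mix named stages or states. A count of 0 here is thus not read as absence of a change. *Tuba3b* set the lines apart: it was at 0.106 to 0.936 TPM in the Pcgf2/4 line and 0.303 to 11.3 in the Pcgf6 line, and at 4.22 to 6.92 in the Pcgf3/5 line and 4.41 to 22.1 in the Pcgf1 line. The sum with *Tuba3a*, 17.7 to 30.8 TPM in the Pcgf2/4 line and 24.4 to 41.8 in the Pcgf3/5 line, overlapped between them.

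Other germ cell genes moved in the point mutant line as well. Of a list of 24 genes of meiosis, the piRNA pathway and germ cell chromatin, 22 were tested. In mutant ESCs of that line 2.34% of all genes were higher and 0.197% lower. Of the 22, 8 were higher and 0 lower, with a median of 1.08 where all genes had 0.12. They were led by *Tdrd1*, a Tudor protein of the piRNA pathway (0.665 to 9.12 TPM, means of 2 libraries, 3.57 on the log2 scale, limma adjusted p = 0.0255), *Mael*, another piRNA factor (22.3 to 139.7 TPM, 2.68, adjusted p = 0.00714), and *Sycp2*, of the synaptonemal complex (0.956 to 5.77 TPM, 2.5, adjusted p = 0.0480). In mutant EBs 3.76% of all genes were higher and 0.764% lower. Of the 22, 6 were higher and 1 lower, with a median of 1.07. They were led by *Stra8*, the gatekeeper of meiotic entry (39.8 to 321 TPM, 3.10, adjusted p = 0.0174), *Tdrd1* (2.56) and the germ cell helicase *Ddx4* (1.82). In the Pcgf1 line 0 were higher and 0 lower in mutant ESCs (median -0.63), and in mutant EBs 0 were higher and 1 lower, *Sohlh2*, a germ cell transcription factor (14.5 to 4.83 TPM, -1.53, adjusted p = 0.0458). The difference between the lines passed for 4 of the 22 in ESCs and 2 in EBs, all with the larger rise in the point mutant line. Over all genes 1.13% and 2.14% passed. Feeder markers were higher in these mutant libraries, as given above.

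**Figure D5:**
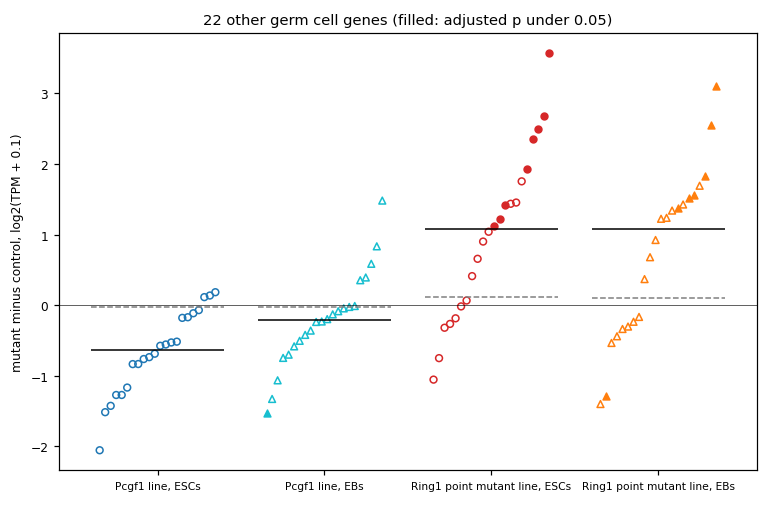
Difference between mutant and control (log2(TPM + 0.1)) of the 22 tested other germ cell genes in ESCs and EBs of the Pcgf1 and Ring1 point mutant lines, sorted within each comparison, with filled points past the adjusted p threshold, a solid bar at their median and a dashed bar at the median of all genes. In the point mutant line 8 genes in ESCs and 6 in EBs are filled above 0 and 1 in EBs below it, and in the Pcgf1 line 1 is filled, below 0 in EBs.

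Of the 14 subunit genes of PRC1.6, none passed between mutants and controls of the Pcgf1 line in either stage, or in EBs of the point mutant line. In ESCs of the point mutant line *E2f6*, which encodes a DNA-binding subunit, was higher (27.5 to 54.9 TPM, means of 2 libraries, 1.00 on the log2 scale, limma adjusted p = 0.0315). Between control EBs and ESCs of the Pcgf1 line 2 were higher and 2 lower, 4 of 14 where 24.9% of all genes passed, among them *Yaf2* (0.86), *Pcgf6* (0.66) and *Rnf2* (-0.64).

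Between pairs of the 8 testis genes, Pearson's r over the 27 libraries of the Pcgf1 and point mutant lines ran from 0.675 (*Taf7l* and *Dazl*) to 0.988 (*Tuba3a* and *Tuba3b*). Each gene was also set against the mean of the 8, which includes that gene and so raises r. With this mean r ran from 0.881 (*Taf7l*) to 0.973 (*Tdrkh*). Among other genes whose mean reached 1 TPM in some group, those most like this mean were *1700019B21Rik* (r = 0.981), *Spesp1* (0.972), *Syce1* (0.971), *1700019N19Rik* (0.969) and *Gm15107* (0.967). *Syce1*, of the synaptonemal complex, was at 1.90 to 5.81 TPM in the Pcgf1 line, 34.5 to 75.5 in controls of the point mutant line and 119 to 157 in its mutants. *Spesp1*, a protein of the sperm equatorial segment, was at 0 to 0.223 TPM, 0.987 to 2.80 and 5.50 to 13.8 respectively. The libraries of the 2 lines stand apart, so these correlations carry the difference between the lines, and they are given without a test.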

How the data were processed

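Poly(A) RNA was sequenced as single-end reads, and the authors aligned them with STAR 2.5.2b to mm9 and deposited TPM per gene. How counts became TPM is not given in the sources used here, so TPM are compared as deposited. Each library sums to 1000000 TPM over 24391 genes, and no 2 of the 59 libraries were identical. The authors' DESeq2 test needs counts and was not used on TPM. Here log2(TPM + 0.1) was fitted per line with limma 3.58.1 (R 4.3.3; mean-variance trend, Benjamini-Hochberg over all genes above 0 in a fitted library, adjusted p below 0.05), and all 59 libraries together for differences between lines. The script was tested on simulated data. Groups follow the sample labels. The title numbers one mutant EB library of the Pcgf1 line 4 where its characteristics say 5, and the title was followed. Genes named beyond the 8 are targeted genes, the 3 called genes with the largest change per list and comparison, and the 5 genes most like the mean of the 8. The genes and lists were chosen with earlier results of these data known. In the Pcgf1 line same-numbered libraries deviated together in all 18 pairs of groups (r = 0.317 to 0.653), so fits with the replicate number as a block are given where they change a call. Alternatives were another pseudocount, a filter on low TPM, quantile and median-of-ratios scaling, smaller fits, the block and leaving out each library. Leaving out libraries from the line differences was chosen after seeing the data. Libraries were left out only from fits without the block.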

Additional observations from a re-analysis of the deposited data

Results flagged for a closer look

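Of 32 groups of 4 or 5 libraries of the Pcgf1 line, 1 held a library far from the others by Dixon's criterion, which chance exceeds in about 1 of 20 groups. *Tdrkh* was at 2.94 TPM in control EB replicate 1, where the nearest library was at 1.93 and the lowest at 1.53. In 4 cases the change between mutant and control differed between the Ring1 point mutant line and the Pcgf1 line by a test of the difference itself, with 2 libraries a group in the first. These were *Stk31* in ESCs (2.04 on the log2 scale, limma adjusted p = 0.00685), *Tdrkh* in ESCs (2.5, adjusted p = 0.00423) and in EBs (2.47, adjusted p = 0.00317), and *Taf7l* in EBs (2.90, adjusted p = 0.0355). Both mutant libraries were above both controls in the point mutant line for each of these genes.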

How the results depend on the processing

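The 48 differences of the testis genes past the threshold kept their direction in all 542 recomputed values, and 108 of these lost the threshold; differences that had not passed were not followed in this way, and *Tex101* between mutant and control ESCs of the Pcgf1 line went from 0.13 to -0.15 under the block. Of the 8 genes, the replicate block called 2 between mutant and control ESCs of the Pcgf1 line (0 without it), 5 between its control EBs and ESCs (3), 1 between its mutant EBs and ESCs (0), 7 between EBs and ESCs of the Pcgf6 line (3), 3 in ESCs (2) and 5 in EBs (2) for the point mutant against the Pcgf1 line and 1 for the Ring1A/B against the Pcgf1 line in EBs (0), and it changed no other count. In the Pcgf6 and Pcgf2/4 lines the replicate number is also the stage in the name, so that the block takes out that stage. Same-numbered libraries correlated at 0.258 to 0.381 in the point mutant line and -0.790 to -0.0705 in the Pcgf3/5 line, with only 2 numbers each. Fits of only the groups compared, which have fewer samples, called 0 between control EBs and ESCs of the Pcgf1 line, 0 in ESCs of the point mutant line (5) and 4 in labelled ESCs of the Ring1A/B line (7). For the point mutant against the Pcgf1 line, a pseudocount of 1 called 5 in ESCs and 4 in EBs, and a mean TPM of at least 1 or quantile normalization called 1 in EBs. The cause was not tested. These counts and those of the smaller fits stand without the share of all genes passing. They are thus not read as particular to the 8 genes. Leaving out 1 library gave 0 to 3 between the control stages of the Pcgf1 line, 2 in ESCs and 1 to 3 in EBs of the point mutant line, 4 to 5 in ESCs and 3 to 4 in EBs of the Ring1A/B line, 0 in the Pcgf6 line, and 2 to 3 in ESCs and 1 to 2 in EBs for the point mutant against the Pcgf1 line. Read depth is unknown, so the precision of genes near 0 TPM, *Tex101* in the Pcgf1 line first, cannot be given. Leaving out libraries whose name and label differ leaves no contrast of stage or state alone in the Ring1A/B, Pcgf2/4 and Pcgf6 lines. In the Pcgf3/5 line it leaves only single libraries of control ESCs, control EBs and mutant EBs.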
